A study of Mus musculus with 11 samples.

Results

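The interferon response and antigen presentation genes are a set of 35 genes of the 19329 gene IDs in the expression table of this study. They were chosen by name around *Tgtp1*, an interferon-inducible GTPase already known from these data to have more reads in the mutant, to ask whether that difference is part of a wider response. By role they comprise 10 interferon-inducible GTPases, 4 signalling and transcription factors, 11 antiviral effectors with a sensor and a chemokine, and 10 genes of antigen processing and presentation. RNA of whole pancreatic islets was sequenced in bulk from male mice aged 14 weeks, fed chow and untreated, with 6 wild-type libraries and 5 libraries of mice homozygous for the P33T substitution in the transcription factor PDX1 (PDX1P33T). The mutation was introduced with CRISPR-Cas9 into the inbred C57BL/6N strain, so all cells of the animal carry it, not only beta cells. Islets were cultured after isolation, and a figure legend of the study gives several mice for each replicate, so a library may be a pool of animals. The number of libraries is therefore n, and the p-values refer to the spread between libraries.

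Interferons are secreted proteins that bind receptors linked to JAK kinases. Type I interferons activate a complex containing STAT2 and IRF9 that binds a DNA motif called the interferon-stimulated response element (ISRE), and the response to interferon gamma runs through another motif, the gamma-activated site (GAS). The genes switched on include GTPases and RNA-binding proteins that restrict viruses and intracellular microbes, and the machinery that cuts proteins into peptides and displays them on MHC class I molecules. In islets this display is followed closely because cytotoxic T cells recognise beta cells through it in autoimmune diabetes.

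The promoters of members on which the comparisons turn are shown first, read from RefSeq on build GRCm38.p6, which is not the build of the deposited files. Of the 35 members, 31 had a promoter in that table. The core of an ISRE, GAAA followed by any 2 bases and GAAA again, on either strand, occurred in the 250 bases before the start of 16 of these 31 genes (51.6%), against 3.46% of all 27025 genes with a promoter. The GAS letters TTCNNNGAA, which read the same on both strands, occurred in 10 of the 31 (32.3%), against 8.13% of all genes. Such matches are a description of the sequence and no evidence of binding. *Tgtp1* and *Tgtp2*, near-identical neighbours on chromosome 11, are shown because their reads parted between the genotypes. The 100 bases before each start carry a GAS followed directly by an ISRE, both in capitals, and align with 86 identical bases over 93 columns and 1 gapped base.

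Tgtp1, chr11:48992247-48992346, minus strand: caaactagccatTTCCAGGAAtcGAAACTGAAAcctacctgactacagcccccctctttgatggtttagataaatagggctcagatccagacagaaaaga
Tgtp2, chr11:49064213-49064312, minus strand: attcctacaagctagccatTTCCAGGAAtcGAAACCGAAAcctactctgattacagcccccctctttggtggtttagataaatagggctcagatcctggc

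*Isg15* and *Ifit3* are shown as effectors with a wide range between wild-type libraries, 12.2-fold and 9.31-fold. The promoter of *Isg15* holds 3 overlapping ISRE cores and that of *Ifit3* holds 2 on the reverse strand, all in capitals.

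Isg15, chr4:156200819-156200918, minus strand: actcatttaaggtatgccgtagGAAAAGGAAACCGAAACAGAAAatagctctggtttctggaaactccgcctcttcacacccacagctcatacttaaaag
Ifit3, chr19:34583369-34583528, plus strand: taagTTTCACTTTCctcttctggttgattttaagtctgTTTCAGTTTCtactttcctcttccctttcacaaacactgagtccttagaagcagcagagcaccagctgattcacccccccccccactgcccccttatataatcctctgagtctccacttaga

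*Psmb9* and *Tap1* start head to head, with 225 bases between their RefSeq starts. This stretch is shown because the groups were apart for *Psmb9* and overlapped for *Tap1*. It holds neither of the motifs searched.

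Psmb9 to Tap1, chr17:34187331-34187555, plus strand: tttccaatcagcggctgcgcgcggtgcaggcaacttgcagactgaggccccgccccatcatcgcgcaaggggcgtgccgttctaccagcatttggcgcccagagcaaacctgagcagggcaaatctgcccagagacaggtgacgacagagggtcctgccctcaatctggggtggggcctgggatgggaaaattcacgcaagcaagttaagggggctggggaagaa

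Levels are FPKM, fragments scaled to gene length and library total, so they can be compared between genes. The wild-type values of the deposited table stand mostly on the rows of other genes and had to be put back before any comparison. This succeeded for 26 of the 35 members. The other 9, *Iigp1*, *Igtp*, *Irgm1*, *Gbp3*, *Stat2*, *Ifit1*, *Samhd1*, *Tap2* and *H2-D1*, are given by their PDX1P33T values alone, which stand on their own rows. Libraries held 19311937 to 37094286 counted reads.

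Some libraries stood apart in markers of other cell types that islets contain. The 4 endothelial markers (*Pecam1*, *Cdh5*, *Kdr* and *Plvap*) summed to 390 FPKM in wild-type replicate 3, to 70.9 to 160.5 FPKM in the other wild-type libraries, to 53.1 FPKM in PDX1P33T replicate 2 and to 89.3 to 123 FPKM in the other PDX1P33T libraries. The 6 macrophage and dendritic cell markers with wild-type values (of 9) summed to 155 and 164 FPKM in wild-type replicates 2 and 3, to 52.3 to 68.8 FPKM in the other wild-type libraries and to 46.7 to 65.0 FPKM in PDX1P33T. Stromal markers were highest in wild-type replicate 2 (31.3 FPKM against 4.67 to 17.6 in the other wild-type libraries), and the 3 acinar markers summed to 28.7 FPKM in PDX1P33T replicate 2. Of these acinar markers only *Cpa1* had wild-type values. It was highest in replicate 2 of each genotype, at 6.07 FPKM in wild-type and 2.70 FPKM in PDX1P33T. *Ptprc*, found on leucocytes, was at 0.124 to 0.501 FPKM in all libraries, and the 3 T cell markers analysed summed to 0.195 to 0.320 FPKM in PDX1P33T. The B cell marker *Cd79b* was at 1.495 and 1.725 FPKM in PDX1P33T replicates 3 and 5. In the other libraries it was at 0.0524 to 0.294 FPKM. *Ms4a1* was also highest in these libraries among PDX1P33T (0.190 and 0.101 FPKM), whereas *Cd79a* was highest in PDX1P33T replicate 2 (15.7 FPKM). *Ppy*, of PP cells, was at 2916 and 3024 FPKM in PDX1P33T replicates 3 and 5 and at 7472 to 9821 FPKM in the other PDX1P33T libraries. In bulk RNA, fewer cells of a type and less RNA per cell cannot be told apart. Some results are also given without wild-type replicates 2 and 3 and PDX1P33T replicate 2, below termed the libraries that stood apart in marker genes. PDX1P33T replicates 3 and 5 were kept in that fit, and the part of the markers was not otherwise tested.

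All 35 members were above 0 in at least 4 of the 5 PDX1P33T libraries, as were 98.1% of all gene IDs. The deposited table holds no gene above 0 in fewer than 4 of these libraries except those at 0 in all 5, so this count carries no information on the members. A total of 27 had a mean of at least 1 FPKM against 57.9% of all gene IDs. The MHC class I heavy chain *H2-K1* (248 ± 29.2 FPKM, SD, n = 5), its light chain *B2m* (245 ± 26.7 FPKM) and the heavy chain *H2-D1* (205 ± 17.6 FPKM) led the order, and their ranges overlapped each other. Below them followed *Tapbp*, which tethers class I molecules to the peptide transporter (96.4 ± 17.8 FPKM), the immunoproteasome subunit *Psmb10* (25.3 ± 1.38 FPKM) and the ubiquitin ligase *Trim25* (13.5 ± 0.172 FPKM), each with a range apart from its neighbours. From *Irf1* (7.78 FPKM) down to *Gbp3* (1.18 FPKM) the 21 members formed an unbroken slope in which every neighbour overlapped the next. The lowest 8 were *Gbp7* (0.561 FPKM), *Cxcl10* (0.555), *Ifit2* (0.474), *Tgtp2* (0.239), *Gbp5* (0.220), *Tgtp1* (0.180), *Iigp1* (0.116) and *Nlrc5* (0.0474 FPKM). The 3 highest members stood at percentiles 99.3 to 99.4 of all gene IDs, and *Tgtp1*, which prompted the set, at percentile 20.8.

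**Figure D1:**
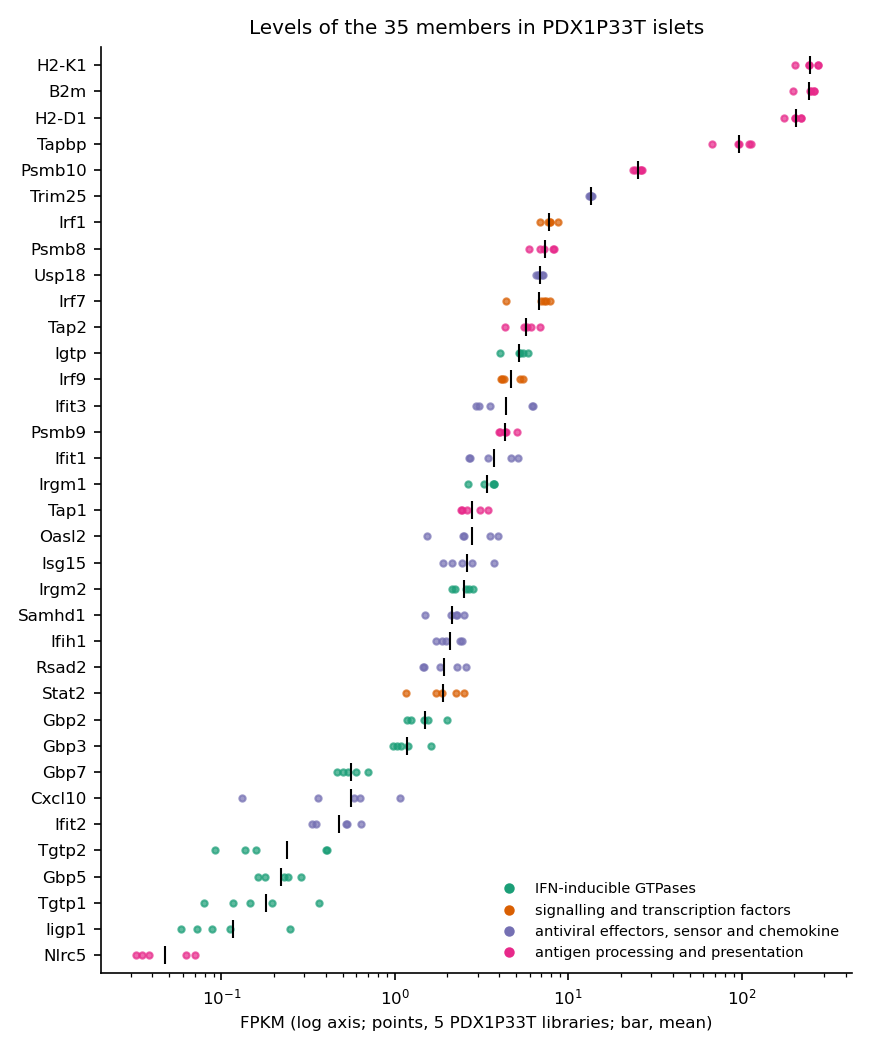
Level of each of the 35 members in FPKM on a log axis, ordered by mean, with points for the 5 PDX1P33T libraries and a bar for the mean. Class I heavy and light chains lie at 205 to 248 FPKM, most antiviral genes between 1 and 10 FPKM, and *Tgtp1* at 0.180 FPKM is 33rd of 35.

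The genotypes were compared by limma on log2(FPKM + 0.1), and a gene was called where the adjusted p (Benjamini-Hochberg) did not exceed 0.05 and the difference reached 1.5-fold. Of the 26 members, 0 were called in either direction, with adjusted p from 0.457 to 1. Over all 10832 genes in the fit, 2 were called higher in PDX1P33T (0.0185%) and 1 lower (0.00923%), so few genes of any kind reached a call. At an unadjusted limma p of at most 0.05, 3 members were higher (*Tgtp1*, *Trim25* and *Psmb9*) and 0 lower, against 9.28% and 9.97% of all genes in the fit. A test of the recovered reads by limma-voom called 0 members and had 4 at an unadjusted p of at most 0.05. The share of all genes at that level is not given for limma-voom. The log2 fold change was above 0 in 11 members (49.8% of all genes in the fit) and below 0 in 15, with a median of -0.06 beside -0.04 over all genes in the fit. It lay between -0.3 and 0.3 in 18 of the 26. The groups did not overlap in the same 3 members, with PDX1P33T higher, against 1.13% of all genes in the fit in that direction, and in 0 members with PDX1P33T lower, against 1.16%. These 3 were put back by their reads in a list ordered by the p of the genotype difference. The 22 members put back by length needed an own p of at least 0.005. The count without overlap therefore follows in part from how rows were identified. A call of those 22 was hardly possible, so the count of 0 called carries little information on them. The same limit held for all other genes put back by length.

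**Figure D2:**
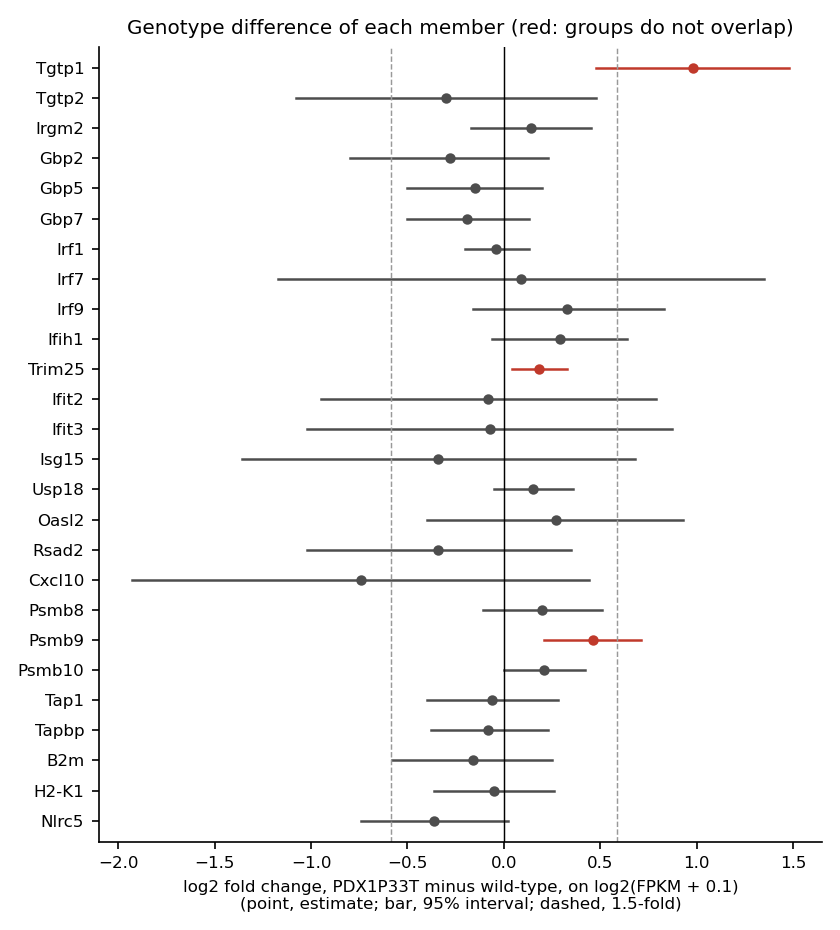
Log2 fold change of the 26 members, PDX1P33T minus wild-type, on the log2(FPKM + 0.1) scale, with 95% intervals and dashed lines at 1.5-fold. *Tgtp1* at 0.98 is the highest and *Cxcl10* at -0.74 the lowest, red marks the 3 members whose groups do not overlap, and the intervals of *Irf7*, *Ifit2*, *Ifit3* and *Isg15* reach past 1.5-fold on both sides.

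The interferon-inducible GTPases attack the membrane around intracellular microbes. *Tgtp1* had 4, 2, 3, 4, 5 and 0 reads in wild-type replicates 1 to 6 and 10, 6, 15, 29 and 23 reads in PDX1P33T replicates 1 to 5. This is 0 to 0.0536 FPKM in wild-type and 0.0789 to 0.367 FPKM in PDX1P33T, so every PDX1P33T library was above every wild-type library, with 29 reads at most. Its log2 fold change was 0.98 ± 0.23 (SE) on log2(FPKM + 0.1), with a 95% interval from 0.48 to 1.48, and 2.29 ± 0.58 by limma-voom on the reads, since the added 0.1 FPKM exceeds its wild-type level. The adjusted p of limma was 0.457. Because *Tgtp1* was picked for this difference, the values are a description.

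*Tgtp2*, the neighbour of *Tgtp1*, overlapped between genotypes. It had 12, 5, 32, 33, 37 and 30 reads in wild-type and 32, 11, 13, 29 and 10 reads in PDX1P33T, with a log2 fold change of -0.30 ± 0.36 (adjusted p = 0.925 by limma, interval -1.08 to 0.48). Summed over libraries, *Tgtp1* had 18 reads in wild-type and 83 in PDX1P33T, and *Tgtp2* 149 and 95. The share of *Tgtp1* in the reads of the pair was 0% to 28.6% in wild-type libraries and 23.8% to 69.7% in PDX1P33T libraries, with wide intervals at this depth (exact 95% binomial interval 0% to 11.6% in wild-type replicate 6 and 51.3% to 84.4% in PDX1P33T replicate 5, counting error only). The reads of both copies together came to 1.05 ± 0.524 per 1000000 counted reads in wild-type (SD, n = 6) and 1.28 ± 0.684 in PDX1P33T (n = 5), and the groups overlapped (exact permutation test, two-sided, p = 0.556). How reads shared by the copies were assigned could change the split between them, and this was not tested. *Tgtp2* was put back by length and order, which could not recover a difference as strong as that of *Tgtp1*. The share and the summed reads rest on that row and on a gene picked for its difference, so they are a description.

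**Figure D3:**
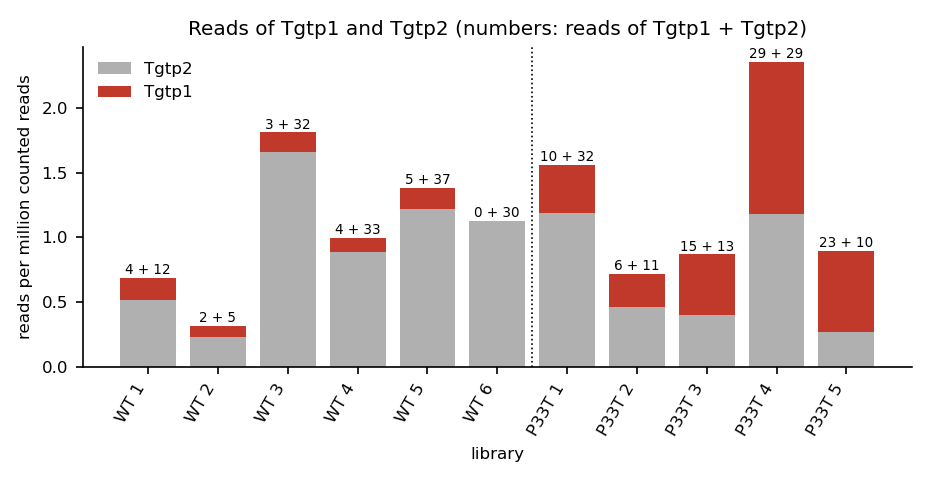
Reads of *Tgtp2* (grey) and *Tgtp1* (red) scaled to library total (per 1000000 counted reads) in each library, with the numbers of reads of *Tgtp1* and *Tgtp2* above the bars. The stacked height overlaps between genotypes, 0.317 to 1.81 in wild-type and 0.716 to 2.36 in PDX1P33T, while the red share is larger in PDX1P33T.

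The other GTPases overlapped between genotypes. *Irgm2* was at 2.57, 1.61, 2.26, 2.04, 2.25 and 2.93 FPKM in wild-type and 2.81, 2.14, 2.22, 2.68 and 2.59 FPKM in PDX1P33T (log2 fold change 0.14, interval -0.17 to 0.45). *Gbp2*, a guanylate-binding protein, was at 1.28, 1.08, 3.11, 1.74, 1.85 and 2.43 FPKM against 1.55, 1.17, 1.23, 2.00 and 1.48 FPKM (-0.28, interval -0.80 to 0.23). All *Irgm2* and *Gbp2* values of PDX1P33T lay within the wild-type range, and wild-type replicate 3 was the highest for *Gbp2*. *Gbp5* ranged from 0.213 to 0.382 FPKM in wild-type and 0.163 to 0.288 FPKM in PDX1P33T, and *Gbp7* from 0.510 to 0.764 and 0.465 to 0.702 FPKM. Both overlapped widely, with log2 fold changes of -0.15 and -0.19. Of the GTPases known only in PDX1P33T, *Igtp* was at 4.06 to 5.82 FPKM, *Irgm1* at 2.64 to 3.73 FPKM, *Gbp3* at 0.980 to 1.62 FPKM and *Iigp1* at 0.0586 to 0.249 FPKM. *Igtp* and *Irgm1* were lowest in PDX1P33T replicate 2, and *Iigp1* was far higher in replicate 1 than in the others.

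Among the transcription factors, *Irf7*, which amplifies type I interferon production, had the widest wild-type range, as a ratio, after *Cxcl10* among members above 0 in all wild-type libraries. It was at 2.03, 1.32, 19.7, 9.75, 11 and 9.85 FPKM in wild-type replicates 1 to 6 and at 7.26, 4.35, 6.94, 7.84 and 7.39 FPKM in PDX1P33T. Wild-type libraries spanned 14.9-fold, with replicates 1 and 2 low and replicate 3 high, and all PDX1P33T libraries lay between these extremes. The log2 fold change was 0.09 ± 0.58 with an interval from -1.17 to 1.35, so a change of 2-fold in either direction is within the error.

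*Irf9*, the DNA-binding partner of STAT2, was at 3.05, 1.81, 3.61, 5.01, 4.50 and 5.17 FPKM in wild-type and 5.27, 4.16, 4.09, 5.48 and 4.26 FPKM in PDX1P33T (log2 fold change 0.33, adjusted p = 0.623 by limma). Its 2 lowest wild-type libraries were again replicates 1 and 2. *Irf1*, a factor induced by interferon gamma, was nearly level, at 7.66 to 8.46 FPKM in wild-type and 6.89 to 8.71 FPKM in PDX1P33T (-0.04, interval -0.20 to 0.13). *Stat2* was at 1.17 to 2.49 FPKM in PDX1P33T, lowest in replicate 2.

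The antiviral effectors spread widely between wild-type libraries, and 4 of the 9 in the fit had a log2 fold change above 0. *Isg15*, a ubiquitin-like modifier, was at 0.793, 1.93, 9.65, 4.99, 4.36 and 3.2 FPKM in wild-type and 2.43, 3.72, 1.90, 2.77 and 2.12 FPKM in PDX1P33T. *Ifit3*, which binds foreign RNA with its relatives, was at 3.2, 1.22, 11.3, 5.76, 4.85 and 5.53 FPKM against 6.14, 3.53, 3.07, 6.28 and 2.95 FPKM. In both genes the PDX1P33T libraries fell within the wild-type range, with log2 fold changes of -0.34 ± 0.47 for *Isg15* and -0.07 ± 0.44 for *Ifit3*. The value of *Isg15* was -0.72 with wild-type replicate 1 left out and -0.03 with replicate 3 left out. *Rsad2*, the radical SAM enzyme viperin, went from 1.10 to 5.02 FPKM in wild-type and from 1.45 to 2.56 FPKM in PDX1P33T. *Ifit2* went from 0.138 to 1.36 FPKM and from 0.332 to 0.635 FPKM, and *Oasl2* from 1.06 to 3.45 FPKM and from 1.54 to 3.93 FPKM. Wild-type replicate 3 was the highest wild-type library for *Isg15*, *Ifit3*, *Rsad2*, *Ifit2* and *Oasl2*, and replicate 1 or 2 the lowest.

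*Cxcl10*, a chemokine that draws T cells, had the lowest log2 fold change of the members. It was at 0.667, 0.1, 1.63, 1.34, 1.56 and 1.13 FPKM in wild-type and 1.07, 0.131, 0.578, 0.631 and 0.361 FPKM in PDX1P33T. PDX1P33T libraries lay within the wild-type range and each genotype had a library of replicate number 2 near 0.1 FPKM. The log2 fold change was -0.74 ± 0.55 (adjusted p = 0.66 by limma), and -1.20 ± 0.38 without wild-type replicate 2 (adjusted p = 0.641). The wild-type row of *Cxcl10* was put back by length and level, and those of *Irf1* and *Ifih1* by length alone. No check by the order of p was possible for these genes.

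Genes that limit or sense the response spread less than the effectors. *Usp18*, which removes ISG15 from proteins and dampens the receptor, was at 5.02 to 7.38 FPKM in wild-type and 6.51 to 7.17 FPKM in PDX1P33T (log2 fold change 0.15, interval -0.05 to 0.36). *Ifih1*, the sensor of double-stranded RNA MDA5, was at 1.09 to 2.24 and 1.72 to 2.44 FPKM (0.29, interval -0.06 to 0.64). *Trim25*, the ligase that activates the sensor RIG-I, was at 12.0, 10.8, 12.1, 12.6, 11.8 and 12.0 FPKM in wild-type and 13.6, 13.6, 13.2, 13.6 and 13.4 FPKM in PDX1P33T. The groups of *Trim25* did not overlap, but the ratio of means was 1.14 and the log2 fold change 0.18 ± 0.07, which is below the 1.5-fold limit (adjusted p = 0.457 by limma). Of the effectors known only in PDX1P33T, *Ifit1* was at 2.66 to 5.14 FPKM and *Samhd1*, which degrades nucleotides, at 1.5 to 2.52 FPKM.

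In antigen processing, the 3 catalytic subunits of the immunoproteasome all had log2 fold changes above 0 and none was called. *Psmb9* was at 3.82, 2.43, 3.2, 3.34, 3.29 and 2.81 FPKM in wild-type and 3.96, 5.04, 4.29, 4.36 and 4.02 FPKM in PDX1P33T, without overlap between the groups. Its log2 fold change was 0.46 ± 0.12 (interval 0.21 to 0.71, adjusted p = 0.457 by limma). *Psmb10* was at 22.1, 17.1, 25.6, 21.2, 23.3 and 22.9 FPKM against 26.6, 26.3, 23.5, 26 and 24.2 FPKM (0.21, adjusted p = 0.466). *Psmb8* was at 5.48, 5.40, 9.51, 6.31, 5.87 and 6.04 FPKM against 8.18, 8.26, 6.86, 7.27 and 5.96 FPKM (0.20, adjusted p = 0.653). The values of *Psmb10* and *Psmb8* overlapped between genotypes, and wild-type replicate 3 had the highest wild-type value of both. The constitutive subunits, which the immunoproteasome subunits replace, also had log2 fold changes above 0, at 0.34 for *Psmb5*, 0.33 for *Psmb7* and 0.16 for *Psmb6*. PDX1P33T replicate 2 had the highest value of each (117, 17.7 and 90.6 FPKM).

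*Tap1*, a subunit of the peptide transporter that shares its start region with *Psmb9*, overlapped between genotypes. It was at 2.36, 2.14, 3.97, 2.92, 3.14 and 3.17 FPKM in wild-type and 3.45, 2.42, 2.42, 3.11 and 2.59 FPKM in PDX1P33T, inside the wild-type range, with a log2 fold change of -0.06 ± 0.16 (interval -0.40 to 0.28). *Psmb9* was put back by its reads and *Tap1* by length and order, which could not recover a difference as strong as that of *Psmb9*. The difference between the log2 fold changes of the pair was not tested.

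The abundant genes of class I display with wild-type values overlapped between genotypes. *B2m* was at 236, 195, 474, 299, 238 and 263 FPKM in wild-type and 262, 198, 252, 261 and 249 FPKM in PDX1P33T (log2 fold change -0.16, interval -0.58 to 0.25). *H2-K1* was at 178 to 315 and 203 to 275 FPKM (-0.05, interval -0.36 to 0.26), and *Tapbp* at 87.2 to 127 and 67.8 to 113 FPKM (-0.08, interval -0.38 to 0.23). All 3 were highest in wild-type replicate 3 among wild-type libraries and lowest in PDX1P33T replicate 2 of all 5. They were put back by length, which needed a genotype p of at least 0.005, so a strong difference could not have been recovered. *H2-K1* has close sequence relatives, so its reads and those of *H2-D1* may be shared with relatives. *Nlrc5*, the activator of class I transcription, had only 9 to 53 reads in wild-type and 7 to 17 in PDX1P33T, with a log2 fold change of -0.36 ± 0.18 on log2(FPKM + 0.1) and -0.92 ± 0.39 by limma-voom (adjusted p = 0.472 and 0.436). *Tap2* was at 4.30 to 6.90 FPKM and *H2-D1* at 176 to 220 FPKM in PDX1P33T.

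**Figure D4:**
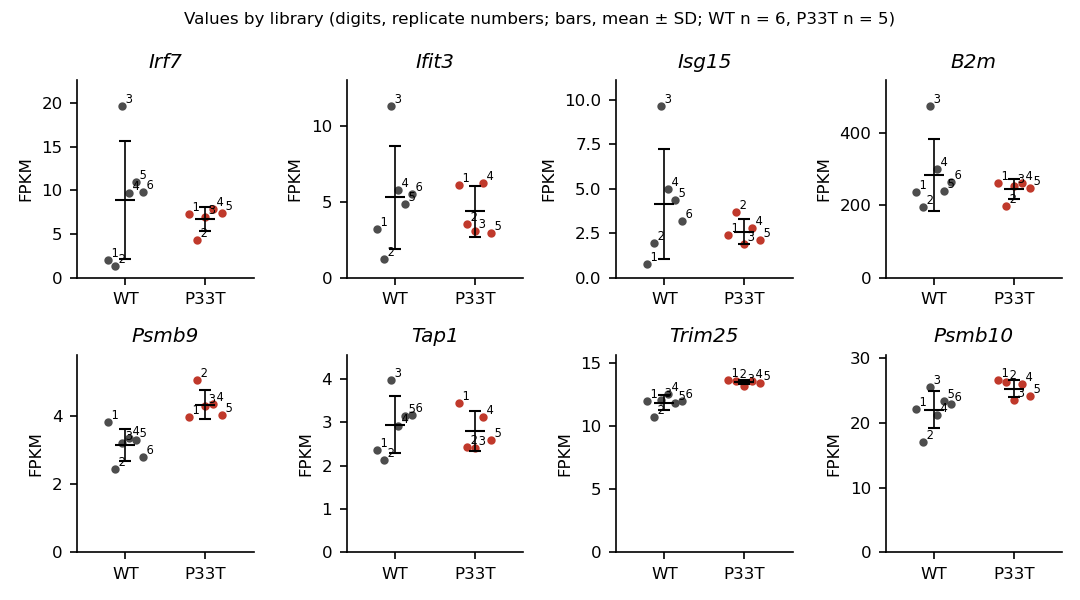
FPKM of 8 members in each library, with replicate numbers beside the points and bars for mean ± SD (6 wild-type and 5 PDX1P33T libraries). *Irf7*, *Ifit3*, *Isg15* and *B2m* spread widely in wild-type with replicate 3 on top, *Psmb9* and *Trim25* do not overlap between genotypes, and *Tap1* and *Psmb10* do.

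Across the set, libraries of one genotype spread widely, wild-type above all. Of the members, 22 were put back by length and needed a genotype p of at least 0.005. This p depends on the group difference and on the spread between libraries. Wide spread beside small genotype differences therefore follows in part from how rows were identified. The same limit held for all other genes put back by length. The SD of log2 values had a median over members of 0.312 in wild-type and 0.217 in PDX1P33T, against 0.235 and 0.212 over all genes in the fit. It was larger in wild-type in 22 of 26 members, against 59% of all genes in the fit. All 5 PDX1P33T values lay within the wild-type range in 14 of 26 members, against 21.1% of all genes. Wild-type replicate 3 was the highest wild-type library for 17 of 26 members (32.3% of all genes), wild-type replicate 2 was the lowest for 19 (15.5%) and replicate 1 for 5 (27.7%). In PDX1P33T, replicate 1 was the highest for 19 of 35 members (19.6% of all genes) and replicate 4 for 12 (19.3%), and replicate 2 was the lowest for 20 (32.8%). The endothelial markers had the same library at the top in wild-type, replicate 3, and the same library at the bottom in PDX1P33T, replicate 2. The other ends differed. The endothelial sum was lowest in wild-type replicate 1 (70.9 FPKM), whereas members were most often lowest in replicate 2. It was highest in PDX1P33T replicate 4 (123 FPKM), whereas members were most often highest in replicate 1. Wild-type replicate 2, low in the members, was high in macrophage and stromal markers. Without wild-type replicates 2 and 3 and PDX1P33T replicate 2, an alternative chosen after seeing the data, 0 members were called and 7 had an unadjusted p of at most 0.05. Of these 7, *Tgtp1*, *Ifih1*, *Trim25*, *Psmb8*, *Psmb9* and *Psmb10* were higher in PDX1P33T and *Cxcl10* was lower. The share of all genes at that level is not given for this alternative, so the count cannot be set against it.

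**Figure D5:**
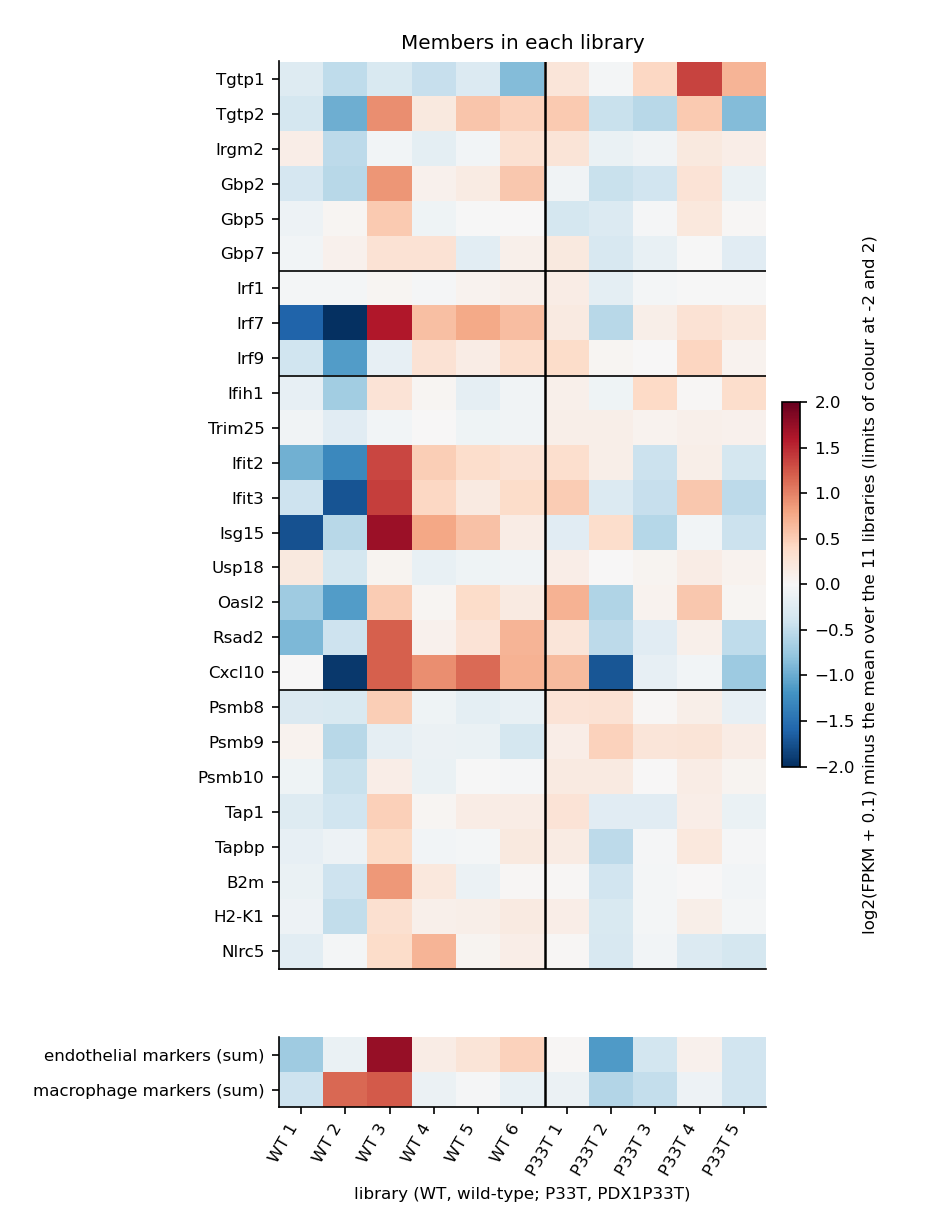
Rows are the 26 members and, below, the summed endothelial and macrophage markers, columns are the 11 libraries, and colour is log2(FPKM + 0.1) minus the row mean. *Irf7*, *Ifit2*, *Ifit3*, *Isg15* and *Cxcl10* are deep blue in wild-type replicates 1 or 2 and red in replicate 3, and the *Tgtp1* row is blue in all 6 wild-type libraries.

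The wider pathway was followed in lists of receptors, sensors, further interferon-stimulated genes and MHC genes, 74 of which were in the fit, 61 of them not members. None was called by limma in either direction, and 18 had an unadjusted p of at most 0.05, 11 higher and 7 lower, beside 9.28% and 9.97% of all genes in the fit. This count was 27 without wild-type replicate 1, 12 without PDX1P33T replicate 3 and 11 with a replicate block by titles. The share of all genes at that level is not given for these alternatives. The median log2 fold change was 0.01. Of the 74, 19 were put back by their reads. The others needed a genotype p of at least 0.005, so a call of these was hardly possible. The groups did not overlap in 3 with PDX1P33T higher and in 1 with PDX1P33T lower, beside 1.13% and 1.16% of all genes in the fit. The 7 interferon ligand genes were not analysed here. Of 8 receptor and signalling genes in the fit, 0 had an unadjusted p of at most 0.05, and the largest differences were in the receptor chains *Ifngr2* (-0.18 ± 0.16) and *Ifnar1* (-0.18 ± 0.11, log2).

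Of the 25 other interferon-stimulated genes in the fit, 8 were higher and 0 lower at an unadjusted p of at most 0.05, beside 9.28% and 9.97% of all genes in the fit. In 17 the log2 fold change was above 0 (49.8% of all genes), with a median of 0.18 beside -0.04. The 8 genes, named after their values were seen except *Ddx60* and *Oas2*, were *Oas1a*, *Oas2*, *Ifi27*, *Ddx60*, *Parp9*, *Cmpk2*, *Herc6* and *Trim21*, with an adjusted p of 0.457 to 0.461 by limma. *Ddx60*, a helicase of the antiviral response, was at 0.277, 0.130, 0.0954, 0.304, 0.265 and 0.242 FPKM in wild-type and 0.394, 0.611, 0.532, 0.425 and 0.378 FPKM in PDX1P33T, without overlap (log2 fold change 0.87 ± 0.21). *Oas2*, which makes the activator of RNase L, was at 0.0675 to 0.539 FPKM and 0.426 to 0.744 FPKM (0.73 ± 0.29). The groups did not overlap in 2 of the 25, with PDX1P33T higher, beside 1.13% of all genes. Without the libraries that stood apart in marker genes, the log2 fold change of *Ddx60* was 0.51. As with the members, 6 of the 25 were put back by reads in the list ordered by the genotype difference.

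MHC class II genes and transcription factors of myeloid cells lay on the other side. The B cell marker *Cd79b*, put back by reads, was higher in PDX1P33T (log2 fold change 1.39 ± 0.53, adjusted p = 0.457 by limma). All 6 MHC class II genes in the fit had log2 fold changes below 0, with a median of -0.56, whereas 49.8% of all genes were above 0. At an unadjusted p of at most 0.05, 2 were lower, beside 9.97% of all genes. Wild-type replicate 3 was the highest wild-type library for all 6 (32.3% of all genes). Of the 6, 4 were put back by reads in the list ordered by the genotype difference. The same holds for *Irf8*, *Irf5*, *Ikbke*, *Socs1* and *H2-Q7* below. *Cd74*, the class II invariant chain, was at 84.6, 96.0, 324, 130, 138 and 146 FPKM in wild-type and 95.9, 59.4, 95, 97.2 and 94.2 FPKM in PDX1P33T (log2 fold change -0.67 ± 0.28, adjusted p = 0.457 by limma). *H2-DMb1*, which helps load class II molecules, was at 0.996 to 2.34 FPKM and 0.411 to 0.920 FPKM, without overlap (-0.89 ± 0.23, adjusted p = 0.457). Over all genes in the fit, 1.16% lacked overlap in that direction. *Irf8* and *Irf5*, transcription factors of myeloid cells, had log2 fold changes of -0.68 ± 0.28 and -0.74 ± 0.25. The macrophage and dendritic cell markers were highest in wild-type replicates 2 and 3, which were also the 2 highest libraries for *Irf8* (2.10 and 4.54 FPKM) and *Irf5* (2.85 and 3.19 FPKM). The class II genes were divided in wild-type replicate 2. *H2-Aa*, *H2-Ab1* and *H2-Eb1* had their lowest wild-type values there (12.5, 18.0 and 21.4 FPKM), and *Cd74* was above replicate 1 alone. *H2-DMa* (1.98 FPKM) and *H2-DMb1* (1.69 FPKM) were below replicate 3 alone. Without wild-type replicates 2 and 3 and PDX1P33T replicate 2, the log2 fold changes were closer to 0, at -0.28 for *Irf8*, -0.33 for *Irf5* and -0.35 for *Cd74*. The part of myeloid cells was not tested. Of 5 nucleic acid sensing genes, 1 was lower at an unadjusted p of at most 0.05, beside 9.97% of all genes. This was the kinase gene *Ikbke* (-0.33 ± 0.14), named after its value was seen. The largest differences, which did not pass that level, were those of *Tlr7*, a receptor for single-stranded RNA, at -0.45 and *Tmem173*, the adaptor STING, at -0.43 (adjusted p = 0.624 and 0.653 by limma). Of 14 class I and loading genes, 1 was higher and 1 lower at that level, beside 9.28% and 9.97% of all genes, with a median of -0.06. Other genes with log2 fold changes below 0 were *Socs1*, an inhibitor of JAK kinases (-0.62 ± 0.23), and *H2-Q7*, a class I gene with close relatives (-0.94 ± 0.43).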

How the data were processed

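RNA-seq of whole islets from 6 wild-type and 5 PDX1P33T libraries was used. Per the submitters' processing notes, the authors used fastp 0.23.1, HISAT2 2.0.5, featureCounts 1.5.0-p3 and DESeq2 1.20.0 with build GRCm39, and deposited FPKM per gene and library. Whether the library kit marked strand is not given in the sources used here. Members and gene lists were chosen with earlier results of these data known.

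The deposited FPKM of wild-type libraries stand mostly on rows of other genes. Steps between low values gave library totals and gene lengths, and wild-type values were put back for 10832 of 19329 gene IDs: 1708 by reads listed in a supplementary gene table, 3405 by length and level, 4066 by length and order and 1653 by length alone. The reads list is ordered by the p of the genotype difference and only its first 1749 rows were held. All rows put back by length needed a genotype p of their own between 0.005 and 0.70. Those put back by length and level or by length alone also needed group means within 4-fold. Rows put back by order needed a p similar to that of the row they stood on. This p depends on the group difference and on the spread between libraries, so identification used both. These steps were tested on simulated data.

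Groups were compared by limma 3.58.1 (R 4.3.3, trend and robust options) on log2(FPKM + 0.1), without a replicate block. Fold changes on this scale understate those of low genes. The Benjamini-Hochberg adjustment ran over 19329 gene IDs, and a call needed an adjusted p of at most 0.05 and 1.5-fold. The summed reads of the *Tgtp* pair were tested by permuting libraries exactly, two-sided. All 35 members were described, and of each pathway list the genes called and the 2 with the largest absolute log2 fold change were named. Alternatives were other pseudocounts, filters, scalings, limma-voom on recovered reads, replicate blocks and leaving out libraries. The authors' columns of fold changes and p-values were not used. Python 3.11.15, numpy 2.4.6, pandas 2.3.3, scipy 1.17.1, numba 0.67.0 and matplotlib 3.10.9 were used.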

Additional observations from a re-analysis of the deposited data

Results flagged for a closer look

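Dixon's limits (0.625 for 6 libraries, 0.710 for 5) were applied to 61 groups of values (members by genotype). A library lay far from the others in 6 groups, or 9.84%, where chance gives about 1 in 20 if groups are independent. The share over all genes is not given, so the count cannot be read as an excess in the members. Over all genes in the fit, wild-type replicate 3 was the highest wild-type library for 32.3%. PDX1P33T replicate 2 was the lowest for 32.8% of genes above 0 in PDX1P33T. Wild-type replicate 3 was the highest for *B2m* at 474 FPKM (next 299), for *Psmb8* at 9.51 FPKM (next 6.31) and for *Gbp5* at 0.382 FPKM (next 0.245). PDX1P33T replicate 2 was the lowest for *B2m* at 198 FPKM (next 249) and for *Irf7* at 4.35 FPKM (next 6.94). PDX1P33T replicate 1 was the highest for *Iigp1* at 0.249 FPKM (next 0.112).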

How the results depend on the processing

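The count of members called was 0 and that of pathway genes called was 0 under every alternative run. Most of these rows were put back by length, which needed a genotype p of at least 0.005, so calls of them were hardly possible. Without the libraries that stood apart in marker genes, an alternative chosen after seeing the data, *Gbp5* (0.01), *Tapbp* (0.10), *Ifngr2* (0.03) and *Tlr7* (0.10) turned above 0 on the log2 scale. With log2(FPKM + 1), *Irf7* was at -0.00. With a replicate block by library names, *Ifit2* (0.18), *Ifit3* (0.20), *Tap1* (0.03) and *H2-K1* (0.01) turned above 0. Same-numbered libraries did not clearly deviate together (correlations -0.553 to 0.139 by titles and -0.553 to 0.119 by library names, 1 of 5 pairs over 0.1 in each). With 5 pairs, this does not settle whether the numbers pair them. The block called 0 members by either numbering, with a lowest adjusted p of 0.819 by titles and 0.863 by library names (limma). Leaving out 1 library in turn gave log2 fold changes of -0.08 to 0.01 for *Irf1*, -0.35 to 0.41 for *Irf7*, -0.34 to 0.18 for *Ifit2*, -0.43 to 0.20 for *Ifit3*, -0.14 to 0.03 for *Tap1*, -0.14 to 0.05 for *Tapbp* and -0.15 to 0.02 for *H2-K1*. Without a change of sign, the range was -0.72 to -0.03 for *Isg15*, -0.55 to -0.13 for *Rsad2*, -0.42 to -0.13 for *Gbp2*, -0.52 to -0.13 for *Tgtp2*, 0.07 to 0.46 for *Oasl2* and -1.20 to -0.42 for *Cxcl10*. Members with an unadjusted limma p of at most 0.05 numbered 3, but 6 with wild-type replicate 3 left out and 5 with either wild-type replicate 1 or 2 left out. The share of all genes at that level is not given for these fits, so the counts cannot be set against it. Genes called over the whole fit numbered 3, and 7, 2 and 5 without wild-type replicates 1, 2 and 3. The cause of these changes was not tested. At the low read numbers of *Tgtp1*, *Tgtp2* and *Nlrc5*, small differences were not detectable.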
